A study of Mus musculus with 24 samples.

Results

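Chemokines are small secreted proteins that steer leukocytes along concentration gradients, and they act through G protein-coupled receptors on the cells they attract. The genes described here are the 61 of 23329 gene symbols in mouse colon libraries whose symbol begins with Ccl, Cxcl, Ccr, Cxcr, Xcl, Xcr or Ackr followed by a number, or is Cx3cl1, Cx3cr1, Pf4 or Ppbp. Of these, 41 encode ligands and 20 encode receptors. No symbol with Ackr was among them, but Cxcr7, the older name of Ackr3, was.

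The 24 libraries came from C57Bl/6 mice and form 6 groups of 4, although the series text speaks of triplicates. Control mice carried VilCre alone, a Cre recombinase driven by the villin promoter in gut epithelium, and transgenic mice had the genotype VilCre-CMVcaNrf2, where caNrf2 is the usual name of a constitutively active form of the transcription factor NRF2, so every mouse carried the Cre. Whole colon wall, taken near the rectum, was sampled from untreated mice and from mice given dextran sulfate sodium (DSS), a detergent-like sugar polymer that injures the colon lining, and epithelial cells were sampled from untreated mice only. The sources used here do not state age, sex, DSS dose or duration, or the method by which epithelial cells were obtained. Whether each library of a group was a different animal is also unstated, so the spread behind each p-value is that between these libraries and may be technical.

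Chemokine receptors couple mainly to inhibitory G proteins, and many accept several ligands. Ligands that bind CXCR2 attract neutrophils, CCR2 ligands attract monocytes, interferon-induced CXCR3 ligands attract activated T cells, and the CCR7 ligands CCL19 and CCL21 bring T cells and dendritic cells into lymphoid tissue and lymph vessels. In the gut, epithelial cells make CCL25, CCL28 and CCL20, which act on lymphocytes carrying CCR9, CCR10 and CCR6, and the membrane-bound ligands CX3CL1 and CXCL16. Inflammatory signals switch on many of these genes through NF-kB, and interferon acts through the ISRE, the binding site of interferon-induced factors.

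Cxcl1, Cxcl2 and Cxcl3 share a cluster on chromosome 5 and were called higher with DSS in both genotypes. Cxcl10 is induced by interferon, and Ccl9 stood highest in epithelium against wall. Their promoters are shown, and only promoters that hold a match to the letters below were chosen. Each is the RefSeq window of GRCm38.p6 from 250 bases before to 50 bases after the annotated start, 5′ to 3′ on the strand of the gene. Capitals mark a match to the NF-kB letters GGGNNTTTCC or, in Cxcl10, to the ISRE letters TTTCNNTTTC, on either strand.
Cxcl1, chr5:90890995-90891294, plus strand: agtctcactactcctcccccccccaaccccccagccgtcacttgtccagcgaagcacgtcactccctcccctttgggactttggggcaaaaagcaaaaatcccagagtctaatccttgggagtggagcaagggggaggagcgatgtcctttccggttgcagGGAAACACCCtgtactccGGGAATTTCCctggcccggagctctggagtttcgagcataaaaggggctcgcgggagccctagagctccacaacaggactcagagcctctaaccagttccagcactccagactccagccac
Cxcl2, chr5:90903649-90903948, plus strand: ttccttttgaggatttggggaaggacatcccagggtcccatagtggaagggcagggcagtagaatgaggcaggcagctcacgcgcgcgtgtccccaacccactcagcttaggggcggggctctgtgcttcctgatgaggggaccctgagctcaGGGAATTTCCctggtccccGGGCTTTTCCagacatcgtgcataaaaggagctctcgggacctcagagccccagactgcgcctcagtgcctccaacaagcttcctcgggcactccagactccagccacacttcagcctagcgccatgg
Cxcl3, chr5:90785851-90786150, plus strand: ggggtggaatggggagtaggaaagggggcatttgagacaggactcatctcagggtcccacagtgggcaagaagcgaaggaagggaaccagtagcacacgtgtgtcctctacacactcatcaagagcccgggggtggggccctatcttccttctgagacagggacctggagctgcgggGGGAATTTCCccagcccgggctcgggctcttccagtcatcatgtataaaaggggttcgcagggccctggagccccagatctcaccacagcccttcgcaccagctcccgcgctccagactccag
Cxcl10, chr5:92348840-92349139, minus strand: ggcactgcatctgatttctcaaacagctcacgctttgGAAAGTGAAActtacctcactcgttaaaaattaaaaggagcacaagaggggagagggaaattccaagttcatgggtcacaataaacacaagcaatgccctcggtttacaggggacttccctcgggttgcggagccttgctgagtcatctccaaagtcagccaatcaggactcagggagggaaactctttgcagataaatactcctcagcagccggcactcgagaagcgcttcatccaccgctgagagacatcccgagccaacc
Ccl9, chr11:83578587-83578886, minus strand: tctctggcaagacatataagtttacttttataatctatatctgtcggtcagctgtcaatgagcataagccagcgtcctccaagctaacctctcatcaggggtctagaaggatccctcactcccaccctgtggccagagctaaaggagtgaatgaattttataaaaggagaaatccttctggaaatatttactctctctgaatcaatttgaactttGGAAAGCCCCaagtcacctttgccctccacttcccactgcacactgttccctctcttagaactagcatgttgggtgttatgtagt

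Cxcl1 held 2 matches to the NF-kB letters, starting 89 and 71 bases before the annotated start. Cxcl2 held 2 as well, at 97 and 78 bases, and Cxcl3 held 1 at 73 bases. The same letters occurred in 6 of the 45 members found in the promoter table (13.3%) and in 512 of all 27025 genes there (1.89%); the other members with a match were Ccl9, Ccl20 and Ccr3. The ISRE letters occurred in 3 of the 45 members (Cxcl10, Ccl19 and Cxcl14, 6.67%) and in 1079 of all genes (3.99%). Ppbp, of the same chromosome 5 cluster and also called higher with DSS in both genotypes, matched neither set of letters. Cxcl9, also induced by interferon, and Ccl6, also higher in epithelium, matched neither as well. Windows without a match are not shown. A match describes the letters and is no evidence that a factor binds there.

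Wall libraries held 20232317 to 154335999 estimated counts each, and epithelial libraries held 6683785 to 15399870. Levels below are in CPM, counts scaled to library size with 1 scale for all 24 libraries, while levels of different genes are compared in TPM, the authors' abundance measure, which also accounts for transcript length. Nfe2l2, the gene that encodes NRF2, was higher in transgenic than control libraries by a log2 fold change of 0.88 ± 0.19 (SE) in epithelium, 0.65 ± 0.19 in untreated wall and 0.62 ± 0.19 in DSS wall, and none of these passed the test (adjusted p = 0.219, 0.199 and 0.957 in edgeR). The epithelial libraries were poor in muscle, since 10 smooth muscle genes summed to 35 to 129 CPM there and to 9433 or more in wall, but they held leukocyte and vessel transcripts, and all 10 epithelial markers were also present in wall. In a bulk sample, fewer cells of a type and less RNA per cell cannot be told apart.

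Per length, the chemokine transcripts of untreated colon were mostly those of a few genes. Ccl6, a rodent CC chemokine that acts on CCR1, was the most abundant member in untreated wall, at 282 ± 83.5 TPM (SD, n = 4) in controls and 210 ± 35.6 TPM in transgenic mice. Ccl21a, Ccl28, Cx3cl1 and Ccl21b followed in that order in both genotypes, with 133, 80.5, 75.2 and 39.6 TPM in controls, and Ccl28 and Cx3cl1 differed by less than their SDs of 26.7 and 15.9 TPM. With DSS the summed level of the 61 members went from 865 ± 86.5 to 2208 ± 414 TPM in controls and from 774 ± 75.7 to 2158 ± 559 TPM in transgenic mice, and the lowest DSS library stood above the highest untreated library in each genotype. The 3 Ccl21 genes then made up 47.4 ± 10.8% of the members' summed TPM in controls and 48.4 ± 3.57% in transgenic mice, against 19.9 ± 2.86% and 23.1 ± 3.98% before DSS. In epithelial cells Ccl6 made up 60.7 ± 8.8% of the sum in controls and 55.0 ± 9.06% in transgenic mice. These sums were not tested, and Ccl26 had no count in any library.

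**Figure D1:**
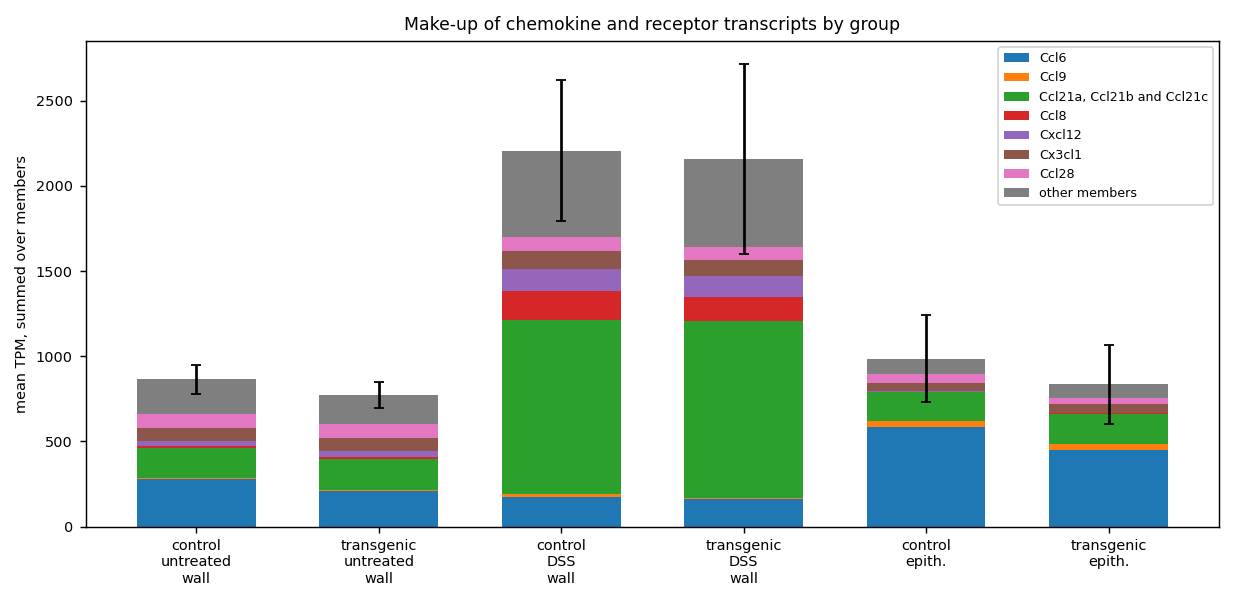
Mean TPM summed over the 61 chemokine and receptor genes in each group (stacked bars, n = 4 libraries), with the SD of the summed level as an error bar and epith. standing for epithelial cells. Ccl6 is the largest part in untreated wall and epithelium, and the Ccl21 genes are the largest part in both DSS groups, where the sum is 2208 and 2158 TPM.

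DSS raised most of the measurable chemokine genes of the colon wall. In control wall, edgeR's test called 33 members, 31 higher and 2 lower, and 54 of the 61 passed the filter on low counts. The same test called 39.2% of all 16074 genes, 23.1% higher and 16.1% lower. In transgenic wall it again called 31 members higher and 2 lower, against 41.2% of all genes (23.1% higher, 18.1% lower). The DSS and untreated libraries did not overlap for 17 of the 54 members in controls and for 25 in transgenic wall, where 34.7% and 35.3% of all genes did not overlap. The calls were the same in both genotypes for 26 members that rose and for Ccl25 and Ccl6, which fell. The 7 members not tested in the wall were Ccl1, Ccl26, Ccr1l1, Ccr3, Ccr8, Cxcl15 and Cxcr1. A gene that passed the filter through its DSS libraries alone had to differ, so these counts describe the members and do not set them apart from other genes.

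**Figure D2:**
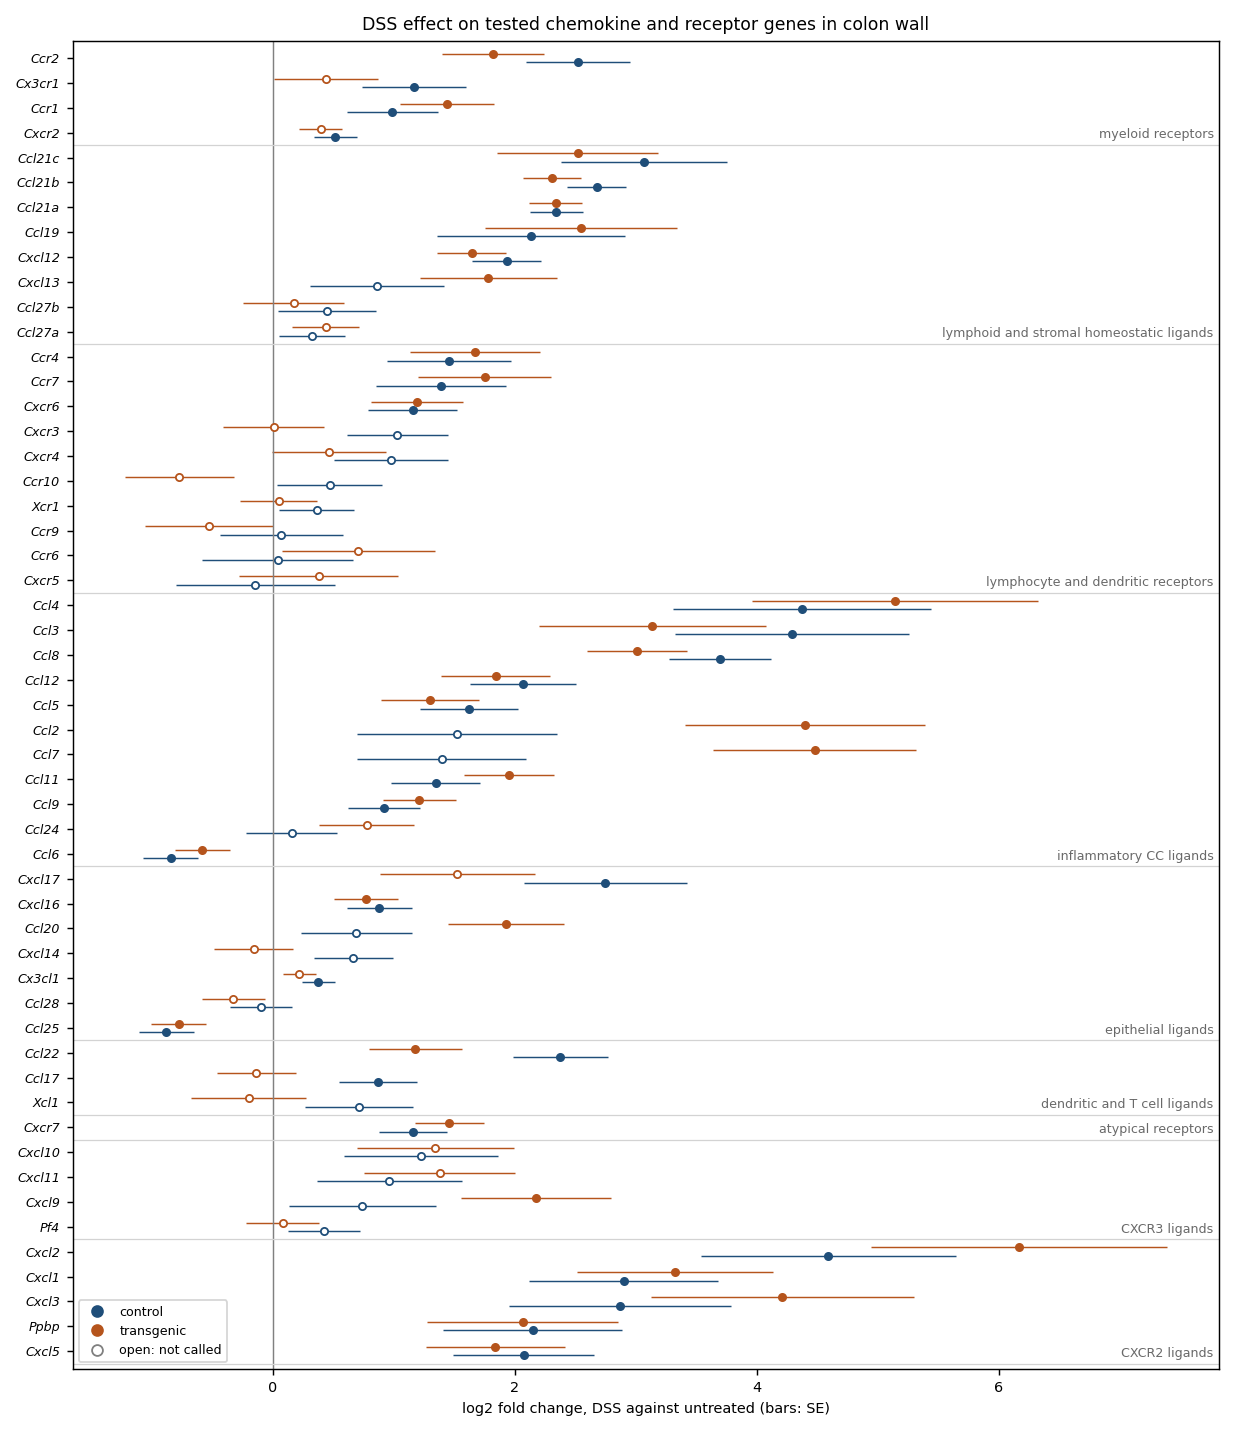
Log2 fold change of DSS-treated against untreated colon wall for tested members, grouped by role, in control (blue) and transgenic (orange) mice; bars are SE, filled points passed an adjusted p of 0.05 and open points did not. The CXCR2 ligands at the bottom were called in both genotypes, and Ccl2 and Ccl7 show the widest gap between the genotypes.

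The CXCR2 ligands, which recruit neutrophils, all rose where measured, 5 of 5 in each genotype, with a median log2 fold change of 2.87 in controls and 3.33 in transgenic wall, where the median of all genes was 0.06 and 0.01. Cxcl15 did not pass the filter, and a ligand that passed it through its DSS libraries alone had to differ. These values therefore describe the ligands and do not set them apart from other genes. Cxcl2 stood at 0.427, 0.679, 0.162 and 0.136 CPM in untreated control wall and at 0.659, 2.43, 1.6 and 22.4 CPM with DSS. In transgenic wall it went from 0, 0.0568, 0 and 0.154 CPM to 11.3, 3.31, 2.5 and 1.87 CPM. The ranges touched in controls, where the lowest DSS library was just under the highest untreated one, and were apart in transgenic wall, and a single DSS library was far above the rest in each group. The log2 fold change was 4.59 ± 1.05 in controls and 6.17 ± 1.22 in transgenic wall (adjusted p = 0.00337 and 0.0012).

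Cxcl1 and Cxcl5 rose to higher levels. Cxcl1 was at 2.28, 2.13, 1.06 and 0.706 CPM in untreated control wall and at 2.45, 4.82, 4.46 and 29.5 CPM with DSS, so the groups did not overlap and the last DSS library stood far above the rest. Its log2 fold change was 2.90 ± 0.78 in controls, where the call was lost without that library (adjusted p = 0.0732), and 3.33 ± 0.81 in transgenic wall. Cxcl5 rose by 2.07 ± 0.58 in controls, from 3.56 ± 1.69 to 14 ± 7.11 CPM, and by 1.84 ± 0.57 in transgenic wall, from 8.66 ± 6.7 to 29.7 ± 17.1 CPM. The transgenic call for Cxcl5 was lost without transgenic DSS replicate 1 (adjusted p = 0.0825) or without untreated replicate 4 (0.0515). Cxcl3, another CXCR2 ligand of the same chromosome 5 cluster, rose by 2.87 ± 0.91 and 4.21 ± 1.09, and in controls the call was lost without DSS replicate 4 (adjusted p = 0.148) or untreated replicate 4 (0.0561). Ppbp, the platelet chemokine of that cluster, had means of 1.27 and 0.958 CPM with DSS, and its calls (2.15 ± 0.74 and 2.06 ± 0.79) were lost in 4 and 6 of the 8 fits that each left out 1 library. The 9 neutrophil marker genes found in the files also rose in both genotypes, all 9 of 9, their sum going from 3.34 to 7.11 CPM in the 8 untreated wall libraries to 16.7 to 68.5 CPM in the 8 DSS libraries. Mmp8 and Fpr1 were under 0.1 CPM in every untreated wall library, as were S100a8 and Retnlg in every untreated transgenic one. A marker that passed the filter through its DSS libraries alone had to differ, so the 9 of 9 only describes the list. The part of the neutrophil markers in these results was not tested.

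**Figure D3:**
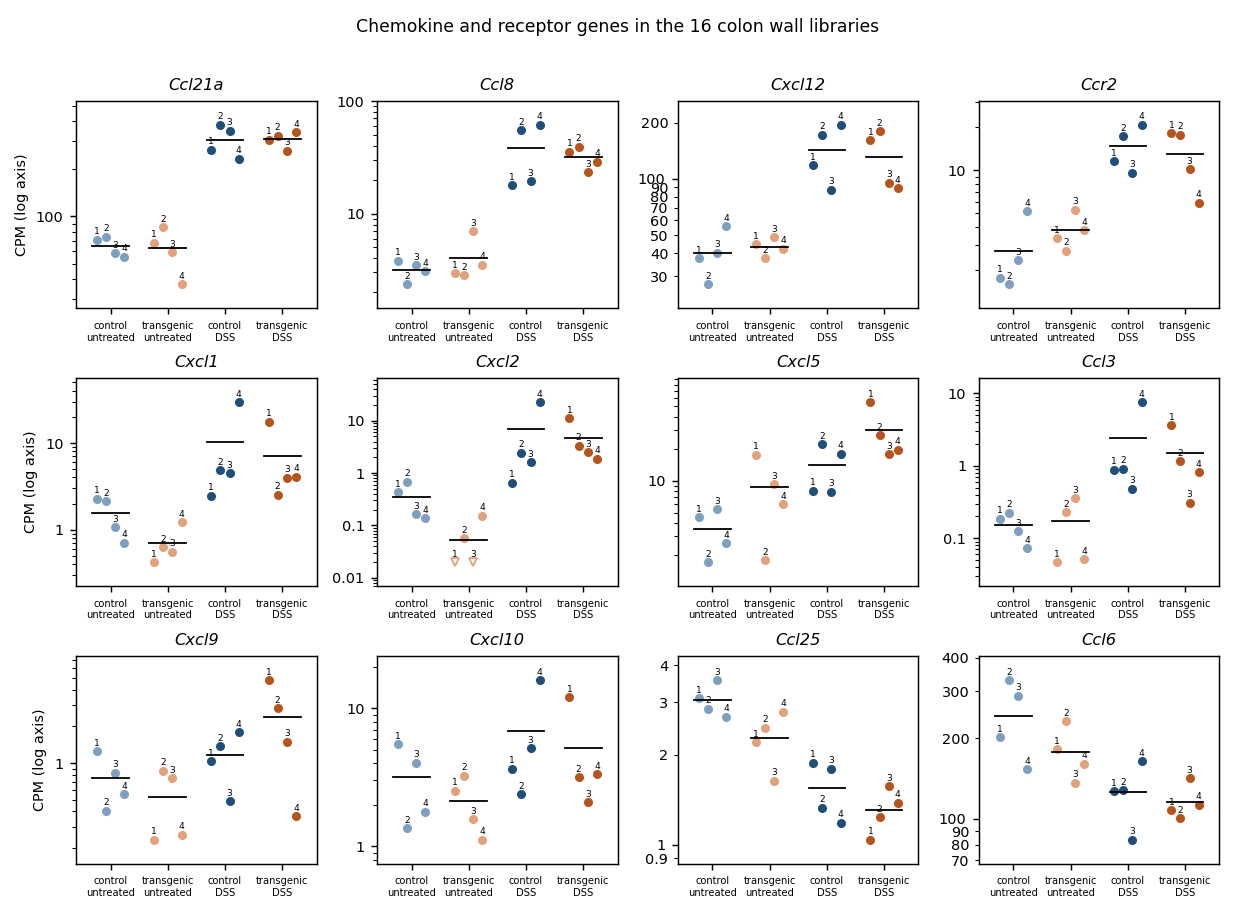
CPM (log axis) of 12 members in the 16 colon wall libraries, each point a library with its replicate number, lines the group means, and open triangles libraries at 0. Ccl21a and Cxcl12 separate by treatment in all libraries, whereas Cxcl1, Cxcl2 and Ccl3 are highest by far in control DSS replicate 4 and transgenic DSS replicate 1.

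Of the lymphoid and stromal ligands, 5 of 8 rose in controls and 6 of 8 in transgenic wall. Ccl21a, made by lymphatic vessels and lymphoid stroma, was at 71, 74.2, 58.7 and 55.7 CPM in untreated control wall and at 264, 381, 348 and 231 CPM with DSS. In transgenic wall it went from 68.4, 85.5, 59.6 and 37.2 CPM to 305, 324, 259.6 and 341 CPM. Every DSS library stood above every untreated one, and the log2 fold change was 2.34 ± 0.22 in each genotype (adjusted p = 1.02e-05 and 1.18e-05). Ccl21b rose by 2.68 ± 0.24 and 2.31 ± 0.24, and Ccl21c by 3.07 ± 0.69 and 2.52 ± 0.66. These 3 genes are near-identical copies on chromosome 4 (Ccl21b and Ccl21c are placed at several sites between 41903613 and 42613253), so the way the authors' counting split reads among them is uncertain. Cxcl12, the stromal ligand of CXCR4, was at 37.6, 27.2, 40.2 and 55.9 CPM in untreated control wall and at 119, 172, 87.3 and 196 CPM with DSS, a log2 fold change of 1.93 ± 0.29, and of 1.64 ± 0.28 in transgenic wall (adjusted p = 0.000234 and 0.000508). Ccl19, the other CCR7 ligand, rose by 2.13 ± 0.78 in controls and 2.54 ± 0.79 in transgenic wall, but in controls the call was lost in 5 of 8 fits that left out 1 library. Cxcl13, the B cell attractant of follicles, passed in transgenic wall (1.78 ± 0.57, lost in 4 of 8 such fits) and was 0.86 ± 0.56 in controls. Ccl27a and Ccl27b, also near-identical copies, did not pass in either genotype.

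Markers of the cells that make these ligands moved too. All 10 endothelial and all 10 fibroblast marker genes rose in both genotypes. The endothelial sum went from 139 to 185 CPM in the untreated libraries to 326 to 446 CPM with DSS, and the fibroblast sum from 1488 to 2066 CPM to 3511 to 5689 CPM, with no overlap between treatments. Of the 8 B and plasma cell markers none was called in either genotype. The part of vessel and stromal transcripts in the chemokine differences was not tested.

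Of 11 inflammatory CC ligands tested, 7 rose, 1 fell and 3 did not pass in controls, and 9 rose, 1 fell and 1 did not pass in transgenic wall. Ccl8, a monocyte-derived ligand of mouse CCR8, was at 3.82, 2.35, 3.48 and 3.07 CPM in untreated control wall and at 17.9, 55, 19.3 and 61.9 CPM with DSS. Transgenic libraries went from 2.95, 2.83, 6.94 and 3.51 CPM to 35.5, 39.4, 23.3 and 28.9 CPM. All 8 DSS libraries were above all 8 untreated ones, and the log2 fold change was 3.70 ± 0.42 and 3.01 ± 0.41 (adjusted p = 5.54e-05 and 0.000106). Members of the same chromosome 11 cluster also rose: Ccl12, a CCR2 ligand, by 2.07 ± 0.44 and 1.84 ± 0.45, and Ccl11, the eosinophil attractant eotaxin, by 1.35 ± 0.36 and 1.95 ± 0.37.

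Ccl3 and Ccl4, made by activated macrophages, had large fold changes at low levels. Ccl3 was at 0.186, 0.226, 0.125 and 0.0725 CPM in untreated control wall and at 0.879, 0.918, 0.485 and 7.56 CPM with DSS, and Ccl4 at 0.119 ± 0.134 and 1.62 ± 2.27 CPM. The log2 fold changes in controls were 4.29 ± 0.97 for Ccl3 and 4.37 ± 1.07 for Ccl4, and in transgenic wall 3.14 ± 0.94 and 5.14 ± 1.18. The transgenic call for Ccl3 was lost without DSS replicate 1 (adjusted p = 0.0857). Ccl5, the T cell product RANTES, rose by 1.62 ± 0.41 and 1.30 ± 0.41, and the transgenic call was lost in 2 of 8 fits that left out 1 library.

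Ccl6 and Ccl9 lie side by side on chromosome 11 (83587886 to 83593087 and 83572917 to 83578636 on mm10, minus strand) and went in opposite directions. Ccl6 fell from 201, 330.1, 288 and 153 CPM in untreated control wall to 127, 128, 83.6 and 164 CPM with DSS, a log2 fold change of -0.85 ± 0.23 (adjusted p = 0.00859), with the ranges overlapping. In transgenic wall it was -0.58 ± 0.23, and that call (adjusted p = 0.0492) was lost in 6 of 8 fits that left out 1 library. Ccl9 rose by 0.92 ± 0.30 in controls and 1.21 ± 0.30 in transgenic wall, and the control call was lost without DSS replicate 4, where Ccl9 stood at 33.8 CPM against 9.55 to 17 CPM in the other 3 libraries (adjusted p without it = 0.141), as it was without untreated replicate 3 or 4.

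The CXCR3 ligands counted were Cxcl9, Cxcl10 and Cxcl11, which interferon gamma induces in many cell types, and Pf4. Of these, 0 of 4 were called in controls and 1 of 4 in transgenic wall. Cxcl10 was at 3.16 ± 1.94 CPM in untreated control wall and 6.8 ± 6.25 CPM with DSS, with a log2 fold change of 1.23 ± 0.64 (adjusted p = 0.136), and in transgenic wall the change was 1.34 ± 0.65 (0.106). Cxcl9 passed in transgenic wall (2.18 ± 0.62, adjusted p = 0.0114), where the call was lost without DSS replicate 1 (0.0601), and was 0.74 ± 0.61 in controls (0.346). Pf4, a platelet product that also binds CXCR3, was 0.43 ± 0.30 and 0.08 ± 0.30. A missed threshold at this spread does not show that these genes did not differ.

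Of the epithelial ligands, 3 rose and 1 fell of 7 tested in controls, and 2 rose and 1 fell in transgenic wall. Ccl25, the ligand of CCR9, fell from 3.05 ± 0.383 to 1.55 ± 0.343 CPM in controls and from 2.27 ± 0.49 to 1.31 ± 0.225 CPM in transgenic wall, with no overlap of the DSS and untreated libraries in either genotype, by -0.88 ± 0.23 and -0.78 ± 0.23 on the log2 scale (adjusted p = 0.00667 and 0.0133). Ccl28 was at 182 ± 37.5 and 159 ± 48.9 CPM before and after DSS in controls and did not pass (-0.10 ± 0.26). Cxcl16 rose by 0.88 ± 0.27 and 0.77 ± 0.27, and the calls were lost without control DSS replicate 4 (adjusted p = 0.0811) and in 6 of 8 fits in transgenic wall. Cx3cl1 was called in controls at 0.38 ± 0.14, a call lost in 6 of 8 such fits, and was 0.22 ± 0.14 in transgenic wall. Cxcl17 rose by 2.75 ± 0.67 in controls at very low levels, with means of 0.0408 and 0.295 CPM. Ccl20, which attracts CCR6+ cells, passed in transgenic wall (1.93 ± 0.48, adjusted p = 0.00483), going from 5.25, 5.54, 3.47 and 2.11 CPM to 8.58, 7.15, 17 and 28.2 CPM, and was 0.69 ± 0.46 in controls. Cxcl14 passed in neither genotype (0.67 ± 0.33 and -0.16 ± 0.33). Pan-epithelial markers summed to 8170 to 21187 CPM over all wall libraries, and 3 of 10 fell and 1 rose in controls, while 1 of 10 fell in transgenic wall.

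Of 3 tested ligands of dendritic cells and T cells, 2 rose in controls and 1 in transgenic wall. Ccl22, which binds CCR4 on regulatory and helper T cells, rose by 2.38 ± 0.40 in controls (adjusted p = 0.00047) and by 1.18 ± 0.38 in transgenic wall, where the call was lost in 4 of 8 fits that left out 1 library. Ccl17, another CCR4 ligand, was called in controls (0.87 ± 0.32, lost in 6 of 8 fits) and was -0.14 ± 0.33 in transgenic wall. Xcl1, made by activated T and NK cells, passed in neither. Of the dendritic cell markers, 3 of 7 rose in controls and 1 of 7 in transgenic wall, their sum going from 10.3 to 23.0 CPM in the untreated libraries to 15.5 to 41.2 CPM with DSS, and their part in these results was not tested.

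Receptors of myeloid cells were called as well. Ccr2, the monocyte receptor, was at 1.76, 1.58, 2.34 and 5.14 CPM in untreated control wall and at 11.6, 17.2, 9.6 and 20.9 CPM with DSS. In transgenic wall it went from 3.33, 2.73, 5.3 and 3.8 CPM to 18.2, 17.7, 10.1 and 5.93 CPM, again without overlap. Its log2 fold change was 2.52 ± 0.43 and 1.82 ± 0.42 (adjusted p = 0.000527 and 0.00317). Ccr1 rose by 0.99 ± 0.38 and 1.44 ± 0.39, but the control call was lost in 6 of 8 fits that left out 1 library. Cxcr2, the neutrophil receptor, was already at 6.12 to 9.24 CPM in untreated control wall and was called in controls at 0.51 ± 0.18, a call lost in 5 of 8 such fits, while it was 0.40 ± 0.18 in transgenic wall. Epithelial libraries held Cxcr2 at a similar level, 4.07 to 11.2 CPM. There, 5 of 9 neutrophil markers were under 0.1 CPM in every transgenic library and 2 of 9 in every control library. In untreated wall these counts were 4 of 9 and 2 of 9. The 9 markers summed to 0.42 to 12.8 CPM in epithelium and to 3.34 to 7.11 CPM in untreated wall, so the ranges overlapped. The part of neutrophils in the epithelial Cxcr2 level was not tested. Cx3cr1, the fractalkine receptor of resident macrophages, was called in controls (1.17 ± 0.43, lost in 5 of 8 fits) and was 0.44 ± 0.43 in transgenic wall. Alongside, 10 of 12 monocyte and macrophage markers rose in both genotypes, their sum going from 202 to 342 CPM in the untreated libraries to 363 to 1038 CPM with DSS.

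In each genotype 23.1% of all genes were called higher, and of 10 lymphocyte and dendritic cell receptors tested 3 were. These were Ccr4 (1.46 ± 0.51 and 1.67 ± 0.54), Ccr7 (1.39 ± 0.54 and 1.75 ± 0.55) and Cxcr6 (1.16 ± 0.37 and 1.19 ± 0.38), the receptors of CCL22, of CCL21 and of CXCL16. In controls these calls were lost in 4, 6 and 4 of 8 fits that left out 1 library, and in transgenic wall in 2, 3 and 3. T cell markers rose in 4 of 9 cases in controls and 1 of 9 in transgenic wall, their sum going from 10.7 to 24.9 CPM in the untreated libraries to 20.4 to 50.3 CPM with DSS, and their part in these results was not tested. Cxcr4, the receptor of CXCL12, was at 12.1 ± 7.21 and 21.9 ± 15 CPM before and after DSS in controls (0.97 ± 0.47, adjusted p = 0.11) and did not pass in transgenic wall (0.46 ± 0.47). Ccr6, Ccr9, Ccr10, Cxcr3, Cxcr5 and Xcr1 passed in neither genotype. Cxcr7, the atypical receptor that takes up CXCL12, rose by 1.16 ± 0.28 in controls and 1.46 ± 0.29 in transgenic wall (adjusted p = 0.00485 and 0.00112), from 12.5 ± 2.25 to 26.1 ± 11.6 CPM and from 9.55 ± 0.607 to 25.5 ± 9.34 CPM.

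Of 7 further genes outside the symbol rule, which encode atypical or chemokine-like receptors or, in the case of Rarres2, the ligand chemerin, 6 rose in controls and 4 in transgenic wall. Darc, the endothelial chemokine scavenger now named ACKR1, rose by 1.90 ± 0.23 and 1.82 ± 0.24, and Ccbp2, the scavenger of inflammatory CC chemokines now named ACKR2, by 1.62 ± 0.40 and 1.84 ± 0.41. Among 18 tested cytokine and NF-kB genes that act upstream of chemokines, 9 rose in controls and 11 in transgenic wall, and none fell. Tnf, a main inducer of NF-kB, rose by 2.32 ± 0.34 and 3.25 ± 0.36. Among 24 genes of signalling downstream of the receptors, 9 rose and 1 fell in controls and 8 rose and 2 fell in transgenic wall. Of all genes, 39.2% were called in either direction in controls and 41.2% in transgenic wall (23.1% higher in each). The downstream counts are near that share and do not set these genes apart. Arrb2, the arrestin that binds activated receptors, rose by 0.88 ± 0.21 and 1.05 ± 0.21.

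The size of the response varied between DSS libraries. Control DSS replicate 4 was the highest of its group for 17 of the 31 members that rose and transgenic DSS replicate 1 for 20 of 31. These members were picked by their calls in the same libraries, and the share over all genes raised by DSS was not counted. The counts therefore do not set the members apart from other genes. Both libraries carried the highest levels of Ccl2, Ccl3, Ccl4, Ccl7, Cxcl1, Cxcl2, Cxcl3 and Cxcl10 in their groups. Without this pair of libraries 24 members were called in controls and 26 in transgenic wall, all of them among the 33 called with all libraries. Replicate 4 of each wall group also came under another number in the deposited file naming, and the sources used here do not say what it means. Without those 4 libraries 20 members were called in controls and 25 in transgenic wall, all among the 33. With fewer libraries any gene passes less readily, and the share of all genes called in these fits is not given here. The lower counts are therefore not shown to be particular to the members. The second file number holds 1 library per group, so it gives no value of its own.

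A test of whether DSS acted differently in the 2 genotypes called 0 of 54 members and 0% of all 16074 genes in edgeR, with 4 members and 7.96% of all genes at an unadjusted p below 0.05. Those were Ccl7 (3.08 ± 1.06 on the log2 scale, adjusted p = 0.478), Ccl2 (2.88 ± 1.25), Ccl22 (-1.20 ± 0.54) and Ccl17 (-1.002 ± 0.458), and next came Ccr10 (-1.24 ± 0.62) and Ccl20 (1.24 ± 0.65). DESeq2 and voom with quality weights also called 0 members. The 10 members called in one genotype and not in the other (Ccl2, Ccl7, Ccl20, Cxcl9 and Cxcl13 in transgenic wall, and Ccl17, Cx3cl1, Cx3cr1, Cxcl17 and Cxcr2 in controls) are therefore not shown to respond differently.

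Ccl2 and Ccl7, neighbouring genes on chromosome 11 (82035577 to 82037452 and 82045712 to 82047523, plus strand) whose products attract CCR2+ monocytes, stood lower in every untreated transgenic wall library than in every untreated control library. Ccl2 was at 2.8, 6.47, 1.79 and 0.715 CPM in untreated control wall and at 0.328, 0.156, 0.393 and 0.309 CPM in untreated transgenic wall. The DSS-treated controls had 2.32, 2.5, 1.46 and 23.7 CPM, and DSS-treated transgenic mice had 12.8, 2.84, 2.63 and 4.43 CPM. Thus the untreated genotypes did not overlap, the DSS groups did, and 3 of the 4 control DSS libraries lay within the range of untreated controls. Ccl7 was at 2.39, 5.48, 1.69 and 0.815 CPM in untreated controls and at 0.375, 0.22, 0.196 and 0.24 CPM in untreated transgenic wall. After DSS the controls had 2.64, 2.57, 2.76 and 16.3 CPM and the transgenic mice 12.4, 2.3, 2.6 and 4.02 CPM. Among untreated controls, replicate 2 was highest and replicate 4 lowest for both genes.

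**Figure D4:**
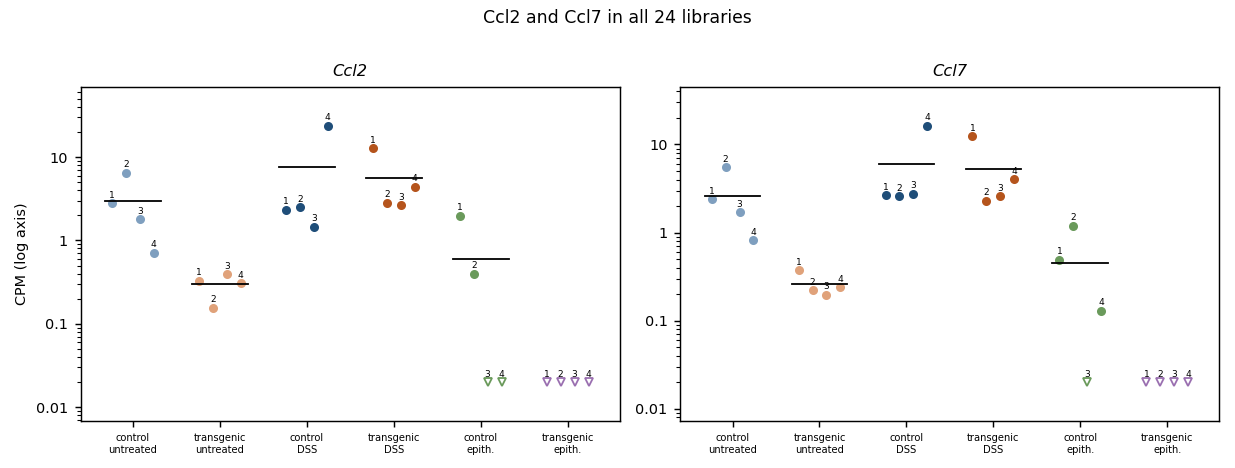
CPM (log axis) of Ccl2 and Ccl7 in all 24 libraries, each point a library with its replicate number, lines the group means, open triangles libraries at 0, and epith. standing for epithelial cells. The 4 untreated transgenic wall libraries lie below all 4 untreated control libraries for both genes, and all 4 transgenic epithelial libraries are at 0.

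Between genotypes in untreated wall, the log2 fold change was -3.31 ± 0.82 for Ccl7 and -3.33 ± 0.97 for Ccl2, and neither passed in edgeR (adjusted p = 0.125 and 0.198). The test called 0 of 54 members and 0.224% of all genes (0.137% higher, 0.0871% lower). An unadjusted p below 0.05 was found for 10.5% of all genes and 5 members: these genes, Cxcl5 (1.30 ± 0.57), Cxcr3 (0.94 ± 0.42) and Ccl24 (-0.86 ± 0.38). Ccl22 came next (0.71 ± 0.39). The groups did not overlap for 4 members, Ccl2, Ccl7, Ccr1 and Cxcr7, or 7.41% of those tested, where 6.78% of all genes did not overlap. DESeq2 called Ccl7 and Ccl2 lower (adjusted p = 0.00421 and 0.0257), and voom with quality weights called 5 members, with Ccl7 and Ccl2 at 0.00792 and 0.0148. The share of all genes that DESeq2 and voom called is not given here, so these counts do not set the members apart. Without replicate 4 of every wall group edgeR called both (0.0258 and 0.0267), and without control untreated replicate 4 it called Ccl7 (0.0331). In the fit without replicate 4 of every wall group, the DSS effect was called different between genotypes for both genes as well, at 4.73 for Ccl7 and 5.27 for Ccl2 (adjusted p = 0.0471 and 0.0368). All these comparisons share the untreated libraries. The DSS effect on Ccl2 and Ccl7 within transgenic wall was 4.40 ± 0.99 and 4.48 ± 0.84 (adjusted p = 0.00277 and 0.000836), and within controls 1.52 ± 0.83 and 1.40 ± 0.70 (0.154 and 0.121).

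No member passed between genotypes in DSS-treated wall, where 0.0933% of all genes were called. None of the 54 reached an unadjusted p below 0.05, as 2.53% of all genes did, and DESeq2 and voom also called 0. Those with the smallest p were Cxcl5 (1.06 ± 0.56), Ccl17 (-0.60 ± 0.33), Ccr10 (-0.77 ± 0.45), Cxcl9 (0.97 ± 0.60), Cxcr4 (-0.76 ± 0.47) and Cxcl14 (-0.53 ± 0.33). Cxcl5 stood at 8.04, 21.9, 7.91 and 18 CPM in control libraries, and transgenic libraries had 54.7, 26.8, 17.8 and 19.7 CPM, so the groups overlapped. Of the 18 tested upstream cytokine and NF-kB genes none was called between genotypes in untreated wall, where Nfkb2, an NF-kB subunit, had the smallest p (-0.51 ± 0.14, adjusted p = 0.146).

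Of the 61 members 44 passed the filter when untreated epithelium and wall were fitted together. In controls 3 were higher and 16 lower in epithelium, and 38.6% of all 15073 genes were called (18.9% higher, 19.7% lower). In transgenic mice 4 were higher and 20 lower, against 43.5% of all genes (20% higher, 23.5% lower). Voom called 32 members in controls, and a fit of the compared groups alone called 15 in transgenic mice. The share of all genes called in those fits is not given here, so these counts do not set the members apart. Higher in epithelium in both genotypes were Ccl6 and Ccl9, and 14 members were lower in both.

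Ccl9, a rodent ligand of CCR1, was at 59.9, 75.3, 37.5 and 58.6 CPM in control epithelium and at 11.5, 11.7, 11.9 and 7.85 CPM in control wall. In transgenic mice it was at 39.3, 48.6, 64.5 and 61.3 CPM in epithelium and at 8.62, 9.46, 6.28 and 6.56 CPM in wall. The lowest epithelial library was above every wall library, by a log2 fold change of 2.66 ± 0.22 in controls and 2.97 ± 0.23 in transgenic mice (adjusted p = 2.8e-07 and 1.08e-07). Ccl6 was at 498, 465, 389.7 and 366 CPM in control epithelium and at 297, 315, 440.1 and 282 CPM in transgenic epithelium, above the wall libraries of the same genotype by 1.05 ± 0.22 and 1.10 ± 0.22. Monocyte and macrophage markers summed to 35.4 to 89.9 CPM in epithelium and to 202 to 342 CPM in untreated wall. Neutrophil markers summed to 0.42 to 12.8 CPM in epithelium and to 3.34 to 7.11 CPM in untreated wall. The part of these cells in the Ccl6 and Ccl9 levels was not tested.

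Among ligands named for epithelium, none of the 6 tested was called higher there than in whole wall. Ccl28 was at 97, 119, 111 and 98 CPM in control epithelium and at 188, 132, 187 and 222 CPM in control wall, a log2 difference of -0.56 ± 0.22 that did not pass (adjusted p = 0.0506), and in transgenic mice it was lower by -1.14 ± 0.22 (0.000571). Cx3cl1 was called lower by -0.63 ± 0.22 in controls and -0.57 ± 0.22 in transgenic mice, calls lost in 5 and 7 of the 8 fits that left out 1 library. Ccl20 was lower, by -2.20 ± 0.70 and -2.39 ± 0.73 (the control call lost in 3 of 8 such fits), and Cxcl14 by -2.67 ± 0.64 and -2.61 ± 0.63. Ccl25 was 0.62 ± 0.41 and 0.69 ± 0.41, and Cxcl16 was -0.79 ± 0.39 and -0.96 ± 0.39, and neither passed. As a check of the label, 5 of 11 colonocyte and goblet cell markers were higher and 3 lower in epithelium than in wall in each genotype. Of 10 pan-epithelial markers, 2 were higher in each, and 1 was lower in controls. The pan-epithelial sum had a median of 9646 CPM in control epithelium and 16017 CPM in control wall, and 11526 and 15337 CPM in transgenic mice. The colonocyte and goblet sum had medians of 43199 and 13659 CPM, and 35899 and 15363 CPM. Thus the pan-epithelial list shows no enrichment in the epithelial libraries.

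**Figure D5:**
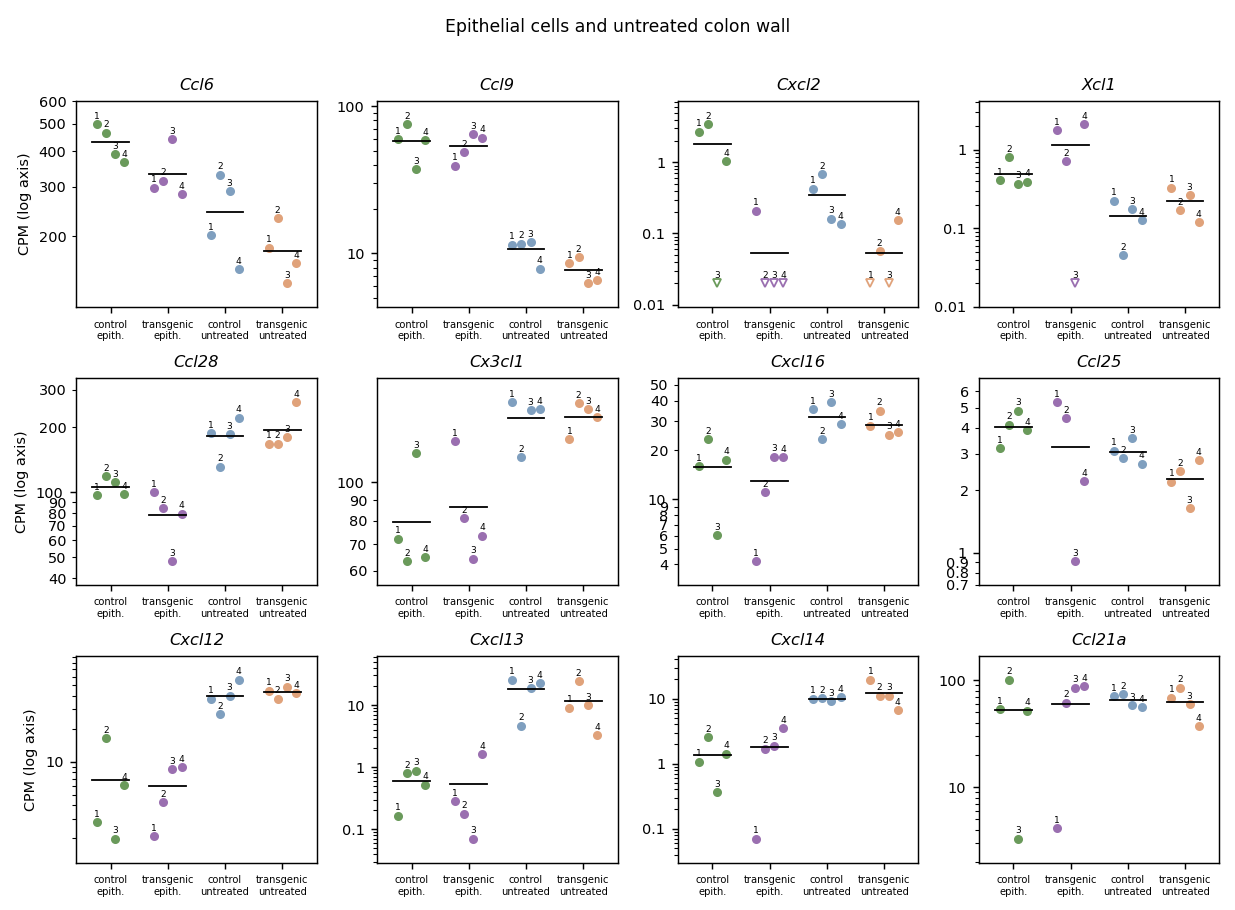
CPM (log axis) of 12 members in epithelial cells (epith.) and untreated colon wall, each point a library with its replicate number, lines the group means, and open triangles libraries at 0. Ccl6 and Ccl9 are higher in epithelium, Cxcl12, Cxcl13 and Cxcl14 lower, and Ccl21a is low in control epithelium replicate 3 and transgenic epithelium replicate 1.

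Of 7 lymphoid and stromal ligands tested, 3 were lower in epithelium and 4 did not pass in each genotype. Cxcl13 was at 0.164, 0.796, 0.88 and 0.519 CPM in control epithelium against 25.4, 4.66, 18.6 and 22.5 CPM in wall (-4.67 ± 0.80), and -4.41 ± 0.82 in transgenic mice. Cxcl12 was lower by -2.35 ± 0.53 and -2.69 ± 0.54. Ccl19 had no count in any control epithelial library, which with 3 counts over the group as the floor makes it at least 57.6-fold lower than in wall. The B cell receptor Cxcr5 (-3.67 ± 0.79 and -3.18 ± 0.77) and Ccr6 (-5.32 ± 1.15 and -3.46 ± 0.996) were lower, as were Pf4, Cx3cr1, Cxcr6 and Ccr2 (calls lost without 1 library in 5 of 8 fits for Ccr2 and 2 of 8 for Cxcr6 in controls, and in 3 of 8 each for Cxcr6 and Cx3cr1 in transgenic mice), and the neutrophil attractant Cxcl5 (-3.79 ± 0.94 and -4.99 ± 0.93). Summed B and plasma cell markers were at 4.04 to 212 CPM in epithelium and at 211 to 472 CPM in untreated wall, and their part in these differences was not tested.

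Ccl21a was not called between epithelium and wall (-0.10 ± 0.72 in controls), and its epithelial level split the libraries. It was at 53.4, 101, 3.3 and 51.7 CPM in control and at 4.13, 61.9, 85.1 and 88.1 CPM in transgenic epithelium, so control replicate 3 and transgenic replicate 1 were far below the other 6. The same libraries had the lowest endothelial marker sums of their groups, 13.1 and 14.2 CPM against 57.6 to 128 CPM in the other 6. Fibroblast, smooth muscle and neutrophil sums were lowest there too, with fibroblast at 39.98 and 46.2 CPM against 121 to 325 CPM. Pan-epithelial sums were highest there, at 18318 and 19344 CPM against 8760 to 11751 CPM. Of the pair, only control replicate 3 was lowest for monocyte and macrophage, B and plasma cell and dendritic cell sums, and neither for T cell sums. The part of vessel, stromal or other non-epithelial RNA in the epithelial Ccl21a level was not tested. Without the pair low in Ccl21a, 23 members were called in controls and 26 in transgenic mice, and the share of all genes in that fit is not given here. Cxcl2 was called higher in control epithelium (2.66 ± 0.99, adjusted p = 0.0428), at 2.71, 3.42, 0 and 1.04 CPM against 0.427, 0.679, 0.162 and 0.136 CPM in wall, but the call was lost in 6 of 8 fits that left out 1 library. Xcl1 and its receptor Xcr1 were called higher in transgenic epithelium (2.59 ± 0.78 and 1.13 ± 0.37), and the call for Xcr1 was lost in 5 of 8 such fits.

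Between genotypes in epithelial cells no member was called, of 21 that passed the filter, and edgeR called 0% of all 12941 genes. DESeq2 and voom also called 0 members, and 1 member and 10.4% of all genes had an unadjusted p below 0.05. That member was Xcr1, a receptor of cross-presenting dendritic cells, at 2.05, 1.11, 0.954 and 0.908 CPM in control and 1.89, 3.57, 2.45 and 4.19 CPM in transgenic epithelium (1.27 ± 0.47, adjusted p = 0.401). Cxcl10 was at 3.36, 2.07, 0.66 and 1.69 CPM in control and 0.07, 0.625, 0 and 1.05 CPM in transgenic epithelium (-2.20 ± 1.03), with the groups overlapping. Next by p were Ccl28 (-0.42 ± 0.22), Ccl6 (-0.34 ± 0.18), Ccl11 (-2.08 ± 1.29) and Cxcr4 (0.89 ± 0.82). Ccl2 and Ccl7 had no count in any transgenic epithelial library and stood at up to 1.97 and 1.19 CPM in control epithelium, where 2 and 1 of the 4 libraries were also at 0, so they did not pass the filter. Without the pair of libraries low in Ccl21a, edgeR called Cxcl2 lower in transgenic epithelium (adjusted p = 0.0284), at 2.71, 3.42 and 1.04 CPM in the 3 control libraries left and 0 in the 3 transgenic ones; this gene was named after its values were seen. A test of whether the transgene effect differed between epithelium and wall called 0 of 44 members and 0% of all genes in edgeR. DESeq2 called 0 members and voom 1, with the share of all genes called by voom not given here. In edgeR Xcr1 alone had an unadjusted p below 0.05 (1.35 ± 0.53, adjusted p = 0.563), where 7.98% of all genes did.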

How the data were processed

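Messenger RNA of 24 mouse colon libraries was sequenced. Per the file headers, each deposited file lists RefSeq transcripts with an estimated (expected) count, TPM and further values; the expected counts are neither length nor depth scaled, and the authors' TPM values are scaled to transcript length and depth. RSEM 1.2.11, FastQC and mm10 are named in the submitters' processing notes. The sources used here name neither the aligner nor the strand setting, so overlapping genes cannot be told apart; 22 of the 61 members overlap another RefSeq gene.

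Expected counts were summed per gene symbol and rounded, and TPM was summed per symbol. Tests used edgeR 4.0.16 (limma 3.58.1, R 4.3.3): quasi-likelihood F test, TMM, filterByExpr by group, Benjamini-Hochberg adjustment over all genes, threshold 0.05. The 16 wall libraries, the 8 epithelial libraries, and the 8 epithelial with the 8 untreated wall libraries were fitted separately. Each SE was taken as |log2 fold change| over the root of F. CPM uses TMM factors over all 24 libraries. Endpoints of a range given for groups of libraries are the lowest and highest library. No pair of the 36 within groups had counts within sampling noise (lowest chi-square per gene 10.5). The same steps were tested on simulated data.

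Alternatives were RLE scaling, no filter, DESeq2 1.42.0, voom with quality weights, the replicate number as a block, fits of the compared groups alone, each library left out, and named libraries left out. Members were named when among the 12 smallest p-values in a direction, to fill 6 a comparison, when abundant or a fixed gut chemokine, or when their role was counted. Results of 1 member are not reported here by name. Members and lists were chosen with earlier results of these data known.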

Additional observations from a re-analysis of the deposited data

Results flagged for a closer look

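Within groups of 4 libraries, 99 sets of values of the members named by the rule, with a mean of at least 1 CPM, were searched for a library far from the others, and 9 were found (9.09%). The cutoff gives about 1 in 20 for independent, normally distributed values. CPM values are skewed and several members moved together in the same library, so these 9 are not shown to exceed chance. In control DSS wall, replicate 4 stood at 22.4 CPM for Cxcl2 against 2.43 in the next library, at 7.56 for Ccl3 against 0.918 and at 4.997 for Ccl4 against 0.941, and replicate 1 stood at 3.015 for Ccl22 with the next at 7.89. Transgenic DSS replicate 1 stood at 11.3 CPM for Cxcl2 against 3.31. Among untreated wall libraries, Ccl9 was low at 7.85 CPM (next 11.5) and Cxcr7 high at 15.9 CPM (next 11.6) in control replicate 4, Ccl28 was high at 262 CPM (next 179.8) in transgenic replicate 4 and Ccl8 high at 6.94 CPM (next 3.51) in transgenic replicate 3.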

How the results depend on the processing

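With the replicate number as a block, 23, 31, 17 and 20 members were called for DSS in controls, DSS in transgenic wall, and epithelium against wall in controls and transgenic mice (33, 33, 19 and 24 without it), and 0 in the other 5 comparisons. Whether same-numbered libraries share more than a number is unstated. Their deviations had a median correlation of -0.09 among wall libraries, with 2 of 24 pairs over 0.1. Among epithelial and untreated wall libraries the median was -0.02, with 5 of 24 over 0.1. Differently numbered pairs were over 0.1 in 21 of 72 and 15 of 72 cases. These values cannot show whether libraries were paired. Leaving out 1 library at a time gave 22 to 34, 24 to 33, 14 to 20 and 16 to 23 members in those 4 comparisons, 0 to 1 for the transgene in untreated wall (1 without control replicate 4) and 0 in the other 4. Members called for the transgene in untreated wall numbered 2 with DESeq2, 5 with voom and 2 without replicate 4 of every wall group. Voom called 32 members in epithelium against wall in controls and 1 for the difference of the transgene effect between tissues. Fitting the compared groups alone gave 15 in epithelium against wall in transgenic mice. Without replicate 4 of every wall group, 20 members were called for DSS in controls and 2 for the difference between genotypes. Without the epithelial pair low in Ccl21a, 1 was called for the transgene in epithelium. The cause of these shifts was not tested. These counts are given without the share of all genes called in the same fits, so the shifts are not shown to be particular to the members. For the members named by the smallest p in each comparison, 1398 of 1445 values under the alternatives kept direction and call, 36 lost the call, 11 gained one and none reversed. Over all called members and alternatives more calls were lost: 109 of 528 for DSS in controls, 58 of 528 for DSS in transgenic wall, and 35 of 285 and 62 of 360 for epithelium against wall in controls and transgenic mice. In fits that tested them, 16 of 33 calls for DSS in controls and 20 of 33 in transgenic wall were never lost over 16 alternatives, and 12 of 19 and 11 of 24 for epithelium against wall over 15. Leaving out control DSS replicate 4 with transgenic DSS replicate 1 was chosen after seeing the data. In epithelium, with the lower library totals, 40 of the 61 members did not pass the filter and were not tested between genotypes.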
